A study of Mus musculus with 23 samples.

Results

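The transcripts of the aryl hydrocarbon receptor pathway were followed in TM4 cells, immortalized Sertoli cells of the mouse testis, after exposure to plasticizers. The 7 genes were the receptor Ahr, its partners Arnt and Arnt2, its repressor Ahrr, and the target genes Cyp1a1, Cyp1b1 and Tiparp. They were chosen by name, through the RefSeq transcript that each array probe was designed for, and were 7 of 20145 named genes on the array, with 11 of its 55681 non-control probes. TM4 cells received 100 μM of mono(2-ethylhexyl) phthalate (MEHP), diisononyl cyclohexane-1,2-dicarboxylate (DINCH), dioctyl maleate (DOM), 1,4-butanediol dibenzoate (BDB) or dioctyl succinate (DOS) for 48 hr, each in a 1% DMSO vehicle, and control cells received the vehicle alone. There were 4 arrays per group and 3 for DOS, 23 in all, each a 1-colour Agilent mouse array for a single RNA sample. The samples were spread over 3 slides. DOM and DOS shared slide rows with DMSO, whereas MEHP, DINCH and BDB lay in the other rows, so that for these 3 compounds slide row and treatment cannot be told apart in the comparison with DMSO.

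The aryl hydrocarbon receptor is a cytosolic transcription factor of the bHLH-PAS family that is held by HSP90 until it binds a planar aromatic ligand. It then enters the nucleus, pairs with ARNT and binds the response element core GCGTG near its target genes. CYP1A1 and CYP1B1 are monooxygenases that oxidize aromatic compounds and steroids, and induction of Cyp1a1 is the classical readout of receptor activity. AHRR competes with the receptor for ARNT, and TIPARP is a mono-ADP-ribosyltransferase that modifies the receptor and limits its activity. ARNT also pairs with the hypoxia-inducible factors, and ARNT2 is a close relative that is best known from neurons.

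Promoter sequences are printed for the induction marker Cyp1a1 and for the pathway genes whose transcripts differed from DMSO below. Each is the RefSeq window of 300 bases around a transcript start that the table gives for the gene in GRCm38.p6, 5′ to 3′ on the strand of the gene, and the capitals mark the response element core, which reads CACGC where it lies on the opposite strand. The Cyp1a1 window is chr9:57697363-57697662 on the plus strand, the Tiparp window chr3:65528197-65528496 on the plus strand and the Arnt window chr3:95434140-95434439 on the plus strand.
Cyp1a1: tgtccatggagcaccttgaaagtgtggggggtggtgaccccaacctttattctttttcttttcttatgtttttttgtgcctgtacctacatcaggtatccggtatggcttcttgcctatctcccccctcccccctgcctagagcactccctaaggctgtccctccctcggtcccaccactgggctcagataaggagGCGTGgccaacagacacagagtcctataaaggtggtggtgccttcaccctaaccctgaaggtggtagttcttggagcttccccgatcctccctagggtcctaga
Tiparp: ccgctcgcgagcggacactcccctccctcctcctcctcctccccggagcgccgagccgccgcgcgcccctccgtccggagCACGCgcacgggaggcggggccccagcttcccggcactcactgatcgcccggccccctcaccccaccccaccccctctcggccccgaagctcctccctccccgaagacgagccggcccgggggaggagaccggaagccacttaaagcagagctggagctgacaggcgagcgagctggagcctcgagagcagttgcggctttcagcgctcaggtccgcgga
Arnt: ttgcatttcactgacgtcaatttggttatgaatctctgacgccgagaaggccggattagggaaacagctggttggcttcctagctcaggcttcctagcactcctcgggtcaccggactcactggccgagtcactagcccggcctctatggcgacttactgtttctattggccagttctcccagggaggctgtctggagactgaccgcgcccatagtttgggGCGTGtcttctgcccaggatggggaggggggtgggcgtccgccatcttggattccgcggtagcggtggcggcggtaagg
For Cyp1a1 and Arnt that start lies inside the RefSeq span of the gene given below, not at its first base. The core lay 54 bases before the start used for Cyp1a1, 29 bases before that of Arnt and, on the opposite strand, 170 bases before that of Tiparp.

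A window was given for 6 of the 7 genes and not for Ahr. The core GCGTG, searched on both strands, was in 5 of these 6 windows, with 3 copies for Ahrr, 1 each for Arnt, Cyp1a1, Cyp1b1 and Tiparp, and 0 for Arnt2. It was in 32.4% of 32851 windows of the same length. The longer form TTGCGTG, which contains the core, was in none of the 6 (0) and in 1.16% of all windows. The share of G and C in the windows was 54% for Cyp1a1, 58.3% for Cyp1b1 and 59.3% for Arnt. It was 60.3% for Ahrr, 73.7% for Tiparp and 76.7% for Arnt2, against a median of 52.7% over all windows. Such matches describe the letters only.

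The cell line was set against markers of its labelled type. Of 16 Sertoli cell markers, 7 were well above background on all 23 arrays, while Wt1, Fshr and Cldn11 were on 0 arrays and Amh on 1. Of the listed markers of other testis cells, Cyp11a1, Hsd3b1 and Lhcgr of Leydig cells and Ptprc and Adgre1 of macrophages were also on 0 arrays. So were Ddx4, Dazl and Kit of germ cells and Myh11 of myoid cells. From the same lists, Cyp17a1 of Leydig cells, Csf1r and Cd14 of macrophages and Acta2 and Cnn1 of myoid cells were on all 23. Star, a further Leydig cell marker, was on 12 of 23 arrays, Des and Sycp3 on 4 each and Zbtb16 on 1. Between 43.4% and 52.18% of spots were well above background and 0 were saturated. The number of arrays limits the precision.

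Transcripts of the receptor and of its constitutive partner were measurable in these cells, and the probes of the CYP1 target genes were not well above background. Ahr, Arnt and Tiparp had a probe well above background on all 23 arrays, 5 probes in all. Cyp1a1, Cyp1b1 and Ahrr were well above background on 0 of 23 arrays, and Arnt2 on 1 of 23. Over the whole array, 38.7% of non-control probes were well above background on all 23 arrays and 34.93% on 0. In bulk RNA, fewer cells that hold a transcript and less RNA per cell cannot be told apart.

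Levels are given as the log2 of the processed intensity minus the 75th percentile of its array, so that 0 is the 75th percentile. The lowest level well above background was between -5.15 and -4.02 on each array. Cyp1a1, which lies on chromosome 9 (57687928 to 57703824 in GRCm38.p6), had a processed intensity of 2.077 to 3.945 over the 23 arrays. Its mean level was -6.54 ± 0.27 (SD, n = 4) with DMSO, -6.53 ± 0.10 with MEHP, -6.44 ± 0.35 with DINCH, -6.60 ± 0.48 with DOM, -6.52 ± 0.12 with BDB (n = 4 each) and -6.54 ± 0.31 with DOS (n = 3). All of these lie below the level at which a signal was told from background, so they carry no order and no fold change is given. The printed promoter therefore belongs to a gene whose probe was not told from background under any of the 6 conditions.

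Cyp1b1 (chromosome 17, 79706940 to 79715061) was likewise above background on 0 of 23 arrays, with an intensity of 2.246 to 10.29. The highest value was MEHP replicate 1, at a level of -4.99, and the other 3 MEHP arrays lay between -6.32 and -6.19. The 2 probes of Ahrr (chromosome 13, 74211118 to 74292331) had intensities of 2.184 to 7.771 and 1.961 to 6.713. Arnt2 (chromosome 7, 84246274 to 84411741) was well above background on DMSO replicate 4 alone, at -4.14, and the other DMSO arrays lay between -6.92 and -6.54. Its intensity over the 23 arrays was 1.891 to 13.25. Ahr had a further probe, A_65_P06603, that was well above background on 0 arrays although the brighter Ahr probe was on all 23, so a dim probe alone does not show that a transcript was missing.

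**Figure D1:**
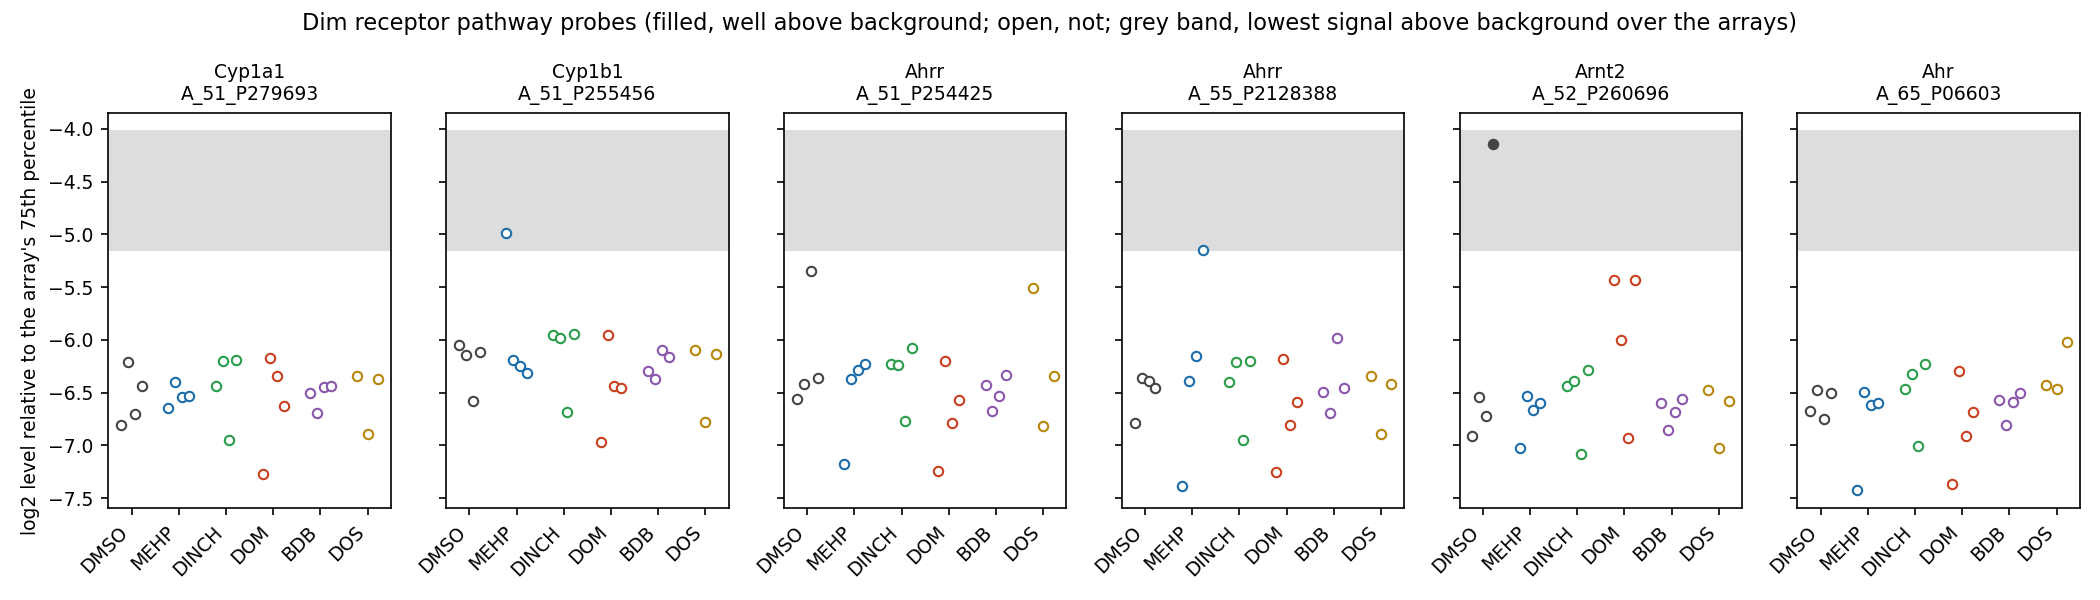
Levels of the 6 dim probes on each of the 23 arrays, as log2 relative to the array's 75th percentile (y axis), by treatment (x axis). Filled points were well above background, open points were not, and the grey band spans the lowest level above background over the arrays (-5.15 to -4.02). The only filled point is Arnt2 in DMSO replicate 4.

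Ahr itself (chromosome 12, 35497979 to 35534989) was present with each compound and with the vehicle. On its brighter probe, A_55_P2109613, the DMSO arrays read -1.79, -1.84, -2.07 and -2.10. The MEHP arrays read -1.65, -1.96, -1.63 and -2.10, the DINCH arrays -1.59, -1.75, -1.94 and -1.58 and the DOM arrays -1.59, -2.05, -2.00 and -1.05. These 3 groups overlapped the DMSO arrays, and DOM replicate 4 was the highest of all 23. The DOS arrays read -1.88, -2.10 and -1.93 and lay among the DMSO arrays. The BDB arrays read -2.60, -2.18, -2.18 and -2.63, and all 4 were below all 4 DMSO arrays.

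In order of the mean, Ahr was at -1.67 ± 0.47 with DOM, -1.71 ± 0.17 with DINCH, -1.84 ± 0.24 with MEHP, -1.95 ± 0.16 with DMSO, -1.97 ± 0.12 with DOS and -2.40 ± 0.25 with BDB (SD, n = 4, DOS n = 3). No neighbours in this order differed by the test, BDB and DOS included (0.43 lower with BDB, 95% interval of BDB minus DOS -0.83 to -0.02, adjusted p = 0.143). Against DMSO, the difference on the log2 scale was 0.28 ± 0.21 (SE) for DOM, 0.24 ± 0.12 for DINCH, 0.11 ± 0.13 for MEHP and -0.02 ± 0.12 for DOS, with adjusted p of 0.352, 0.26, 0.733 and 0.986 by limma. For BDB it was -0.45 ± 0.14 (adjusted p = 0.186, 0.00971 before adjustment), and within the 3 slides it lay between -0.80 and -0.23. Every BDB array was below every DMSO array for 6.79% of the 24291 probes tested in that comparison.

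Arnt (chromosome 3, 95434367 to 95497240), whose product is the partner shared by the receptor and the hypoxia-inducible factors, was called higher with DOM and with DINCH on the dimmer of its 2 probes. A call required more than a 1.5-fold difference together with an adjusted p under 0.05. On that probe, A_55_P2100899, the DMSO arrays read -0.17, -0.53, -0.18 and -0.33. The DOM arrays read 0.30, 0.42, 0.28 and 0.48, the DINCH arrays 0.69, -0.02, 0.19 and 0.74 and the MEHP arrays 0.39, 0.03, 0.17 and 0.08. All 12 arrays of these 3 compounds were above all 4 DMSO arrays, with DINCH the most scattered. The BDB arrays read 0.01, -0.11, -0.10 and 0.00 and were also above all DMSO arrays, while the DOS arrays read -0.20, -0.06 and -0.05 and overlapped them.

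The difference from DMSO on this Arnt probe was 0.67 ± 0.11 for DOM (1.59-fold, adjusted p = 0.00234) and 0.70 ± 0.18 for DINCH (1.63-fold, adjusted p = 0.0404). It was 0.47 ± 0.12 for MEHP (adjusted p = 0.0811), 0.25 ± 0.10 for BDB (adjusted p = 0.3) and 0.20 ± 0.12 for DOS (adjusted p = 0.811). The DOM difference was 0.53 to 0.80 within the 3 slides and 0.62 to 0.72 within the 2 slide rows. The DOM call held with each array left out in turn and was lost with normexp background correction (0.58, under 1.5-fold). The DINCH call was lost when any of the 8 arrays other than DINCH replicate 2 was left out (difference 0.59 to 0.84, adjusted p 0.0238 to 0.0982 over the 8), and within slides the difference was 0.34 to 0.86.

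The brighter Arnt probe, A_55_P2100895, moved less and was called for none of the 5 compounds (0). It read 2.78, 2.78, 2.91 and 2.77 on the DMSO arrays, 3.57, 3.17, 2.79 and 3.38 on the DOM arrays and 3.09, 2.95, 2.95 and 3.09 on the DINCH arrays. All 4 DINCH arrays were above the DMSO arrays, whereas DOM replicate 3 was not. The MEHP arrays read 3.08, 2.94, 2.88 and 2.95, the BDB arrays 2.81, 2.88, 2.72 and 2.94 and the DOS arrays 2.74, 2.99 and 3.18, and each of these groups overlapped DMSO. The difference was 0.42 ± 0.16 for DOM (adjusted p = 0.0737), 0.21 ± 0.09 for DINCH (0.174), 0.15 ± 0.08 for MEHP (0.384), 0.16 ± 0.12 for DOS (0.872) and 0.03 ± 0.09 for BDB (0.923). Both probes were designed for the same RefSeq transcript, had the same sign with each compound, and their levels had a Pearson correlation of 0.612 over the 23 arrays.

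**Figure D2:**
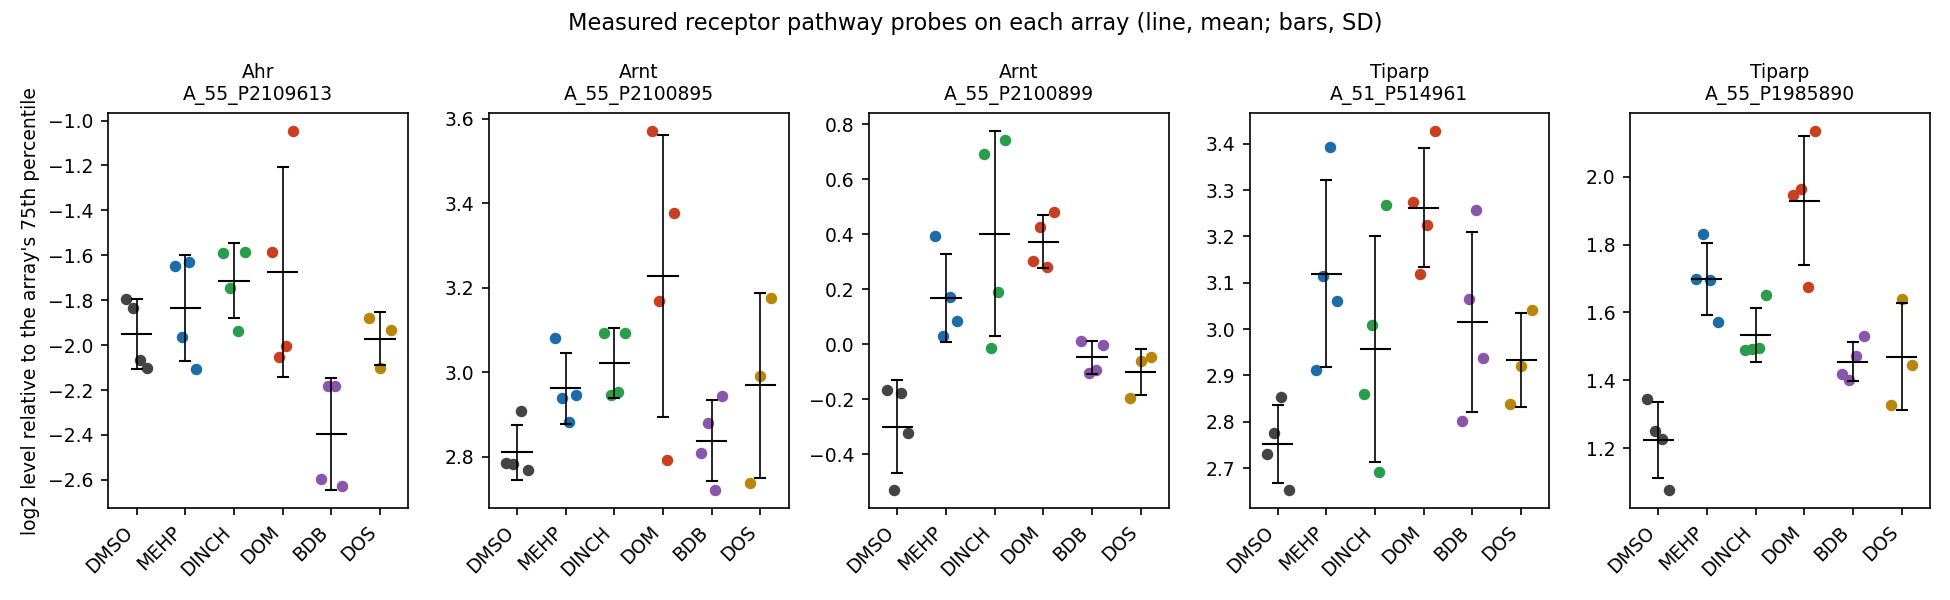
Levels of the 5 probes of Ahr, Arnt and Tiparp that were well above background on all 23 arrays, as log2 relative to the array's 75th percentile (y axis, scaled per panel), by treatment (x axis). Points are arrays, lines are means and bars are SD. The DOM arrays lie above all DMSO arrays for both Tiparp probes and the dimmer Arnt probe, and the BDB arrays lie below them for Ahr.

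Tiparp (chromosome 3, 65528447 to 65555518), a direct target that feeds back on the receptor, was called higher with DOM alone among the 5 compounds. On the dimmer of its 2 probes, A_55_P1985890, the DMSO arrays read 1.34, 1.25, 1.23 and 1.08. The DOM arrays read 1.95, 1.96, 1.67 and 2.13 and the MEHP arrays 1.70, 1.83, 1.70 and 1.57. The DINCH arrays read 1.49, 1.49, 1.5 and 1.65 and the BDB arrays 1.42, 1.40, 1.47 and 1.53. Each of these groups lay wholly above DMSO, by more with DOM and MEHP than with DINCH and BDB in their means. The DOS arrays, at 1.33, 1.64 and 1.44, overlapped DMSO.

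The difference from DMSO was 0.71 ± 0.12 for DOM (1.63-fold, adjusted p = 0.00251). For MEHP it was 0.47 ± 0.09, with an adjusted p of 0.0355 but only 1.39-fold, so it was not called. It was 0.31 ± 0.10 for DINCH (adjusted p = 0.0732), 0.25 ± 0.12 for DOS (0.744) and 0.23 ± 0.09 for BDB (0.269). The DOM difference was 0.44 to 1.06 within the 3 slides and 0.65 to 0.76 within the 2 slide rows, and the MEHP difference 0.42 to 0.49 within slides. The DOM difference was 0.63 to 0.79 and called in the 19 alternative settings that tested this probe, and Tiparp was not called in the setting that tested only the brightest probe of each gene.

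The brighter Tiparp probe, A_51_P514961, gave differences of the same sign, smaller for each compound but BDB. It read 2.73, 2.77, 2.85 and 2.65 with DMSO, 3.28, 3.12, 3.23 and 3.43 with DOM and 2.91, 3.11, 3.39 and 3.06 with MEHP, so that DOM and MEHP again lay above all DMSO arrays. With DINCH it read 2.86, 3.01, 2.69 and 3.27, with BDB 2.80, 3.06, 3.26 and 2.94 and with DOS 2.84, 2.92 and 3.04, and these 3 groups overlapped DMSO. The DOM difference was 0.51 ± 0.10, with an adjusted p of 0.00508 at 1.42-fold, and so was below the fold limit. The others were 0.37 ± 0.11 for MEHP (adjusted p = 0.137), 0.26 ± 0.11 for BDB (0.321), 0.20 ± 0.13 for DINCH (0.371) and 0.18 ± 0.10 for DOS (0.799). The 2 Tiparp probes had a Pearson correlation of 0.741 over the 23 arrays.

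Counted by gene, 2 of the 3 tested members were called with DOM (Arnt and Tiparp), 1 with DINCH (Arnt) and 0 with MEHP, BDB and DOS, every call being higher than DMSO. These counts stand beside large differences in the background. Over all named genes tested, 20.5% were called with DOM (9.9% higher), 8.26% with DINCH (4.25% higher), 1.68% with MEHP, 0% with BDB and 0% with DOS. With 3 genes tested, no share among them can be set apart from these backgrounds. For BDB, 4 of the 5 probes had p below 0.05 before adjustment in limma, against 14.4% of all probes, and for DOS 0 of 5 did, against 7.13%. For MEHP, 3 of 5 probes were above DMSO on every array, against 5.59% of all probes. The same count was 3 of 5 for DINCH (8.91%), 3 of 5 for DOM (14.7%), 2 of 5 for BDB (2.92%) and 0 of 5 for DOS (4.03%). These 5 comparisons share the 4 DMSO arrays, and probes of a gene are not independent.

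**Figure D3:**
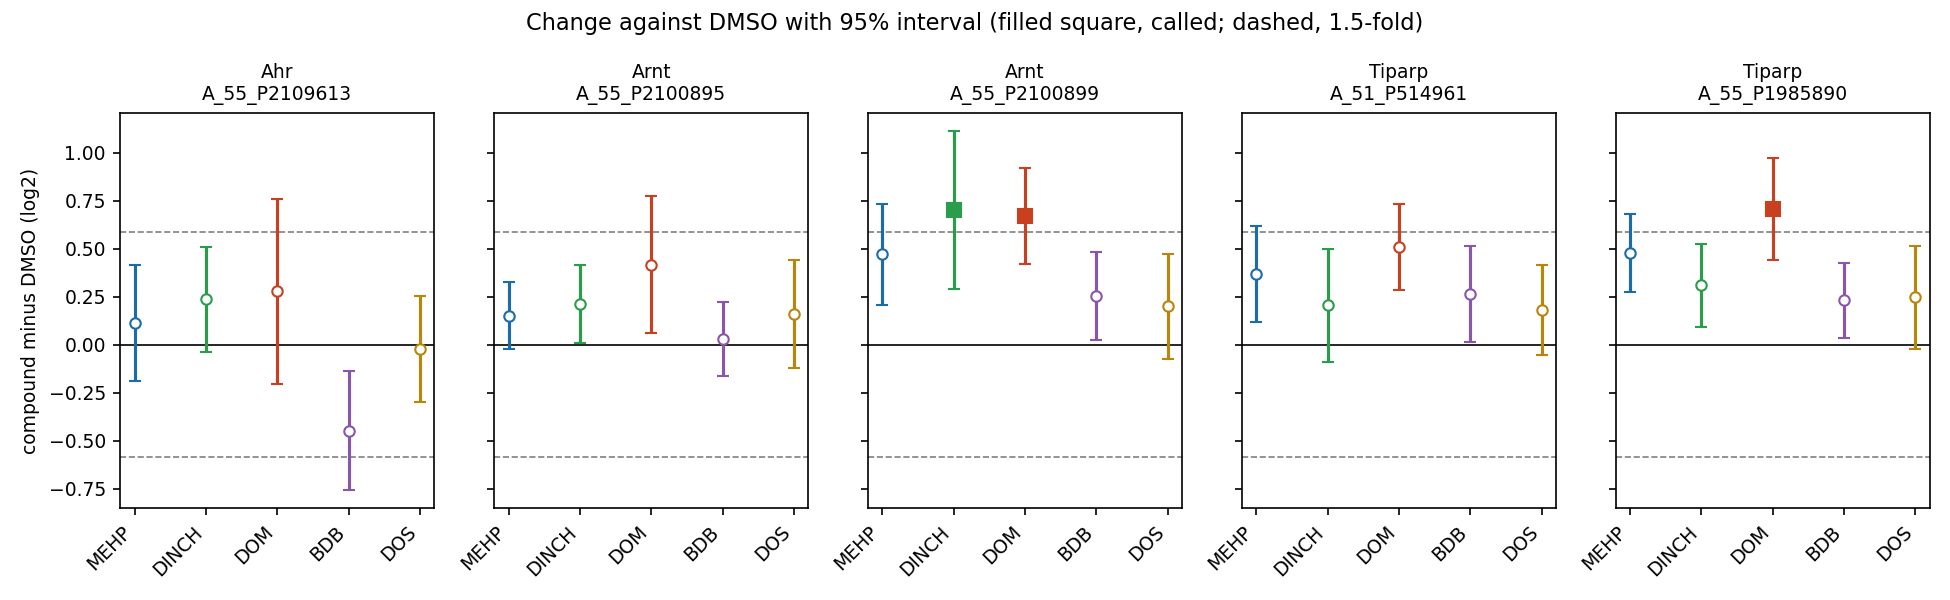
Difference between each compound and DMSO (y axis, log2) for the 5 measured probes, with 95% intervals from limma. Filled squares were called (adjusted p below 0.05 and over 1.5-fold), open circles were not, and dashed lines mark 1.5-fold. The called values are 0.67 and 0.70 for Arnt with DOM and DINCH and 0.71 for Tiparp with DOM.

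The compounds were then compared directly, since all were given at 100 μM for 48 hr. All 10 pairs were compared for the 5 measured probes, 50 differences, with p-values adjusted over 25018 probes and 10 pairs together. Of these, 11 had an adjusted p below 0.05 and 2 were also over 1.5-fold. Both of the latter were Ahr against BDB. Ahr was 0.72 higher with DOM than with BDB (95% interval 0.35 to 1.1, adjusted p = 0.00668) and 0.68 higher with DINCH than with BDB (0.31 to 1.06, adjusted p = 0.0101). Over all probes 20.7% were called between DOM and BDB and 7.53% between DINCH and BDB. DINCH and BDB lay in the same slide rows and DOM did not. Without DOM replicate 4 the DOM difference was 0.52 (adjusted p = 0.0253), which is under 1.5-fold, and the count of 2 became 1, while without DINCH replicate 2 it became 4. MEHP exceeded BDB by 0.56 (0.19 to 0.94, adjusted p = 0.0331), again under 1.5-fold.

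DOM and DOS are both dioctyl diesters, and the maleate of DOM has a carbon-carbon double bond where the succinate of DOS is saturated. Tiparp was higher with DOM than with DOS on its dimmer probe by 0.46 (95% interval 0.25 to 0.67, adjusted p = 0.00289), and Arnt on its dimmer probe by 0.47 (0.17 to 0.78, adjusted p = 0.0271). DOM and DOS arrays lay in the same slide rows. On the brighter probes the differences were 0.33 for Tiparp (0.05 to 0.61, adjusted p = 0.0944) and 0.26 for Arnt (-0.02 to 0.54, adjusted p = 0.202), and for Ahr 0.30 (-0.11 to 0.70, adjusted p = 0.329). None of the 5 was called over 1.5-fold (0), against 11.9% of all probes between DOM and DOS.

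Among the remaining pairs, Tiparp on its dimmer probe was also higher with DOM than with BDB by 0.47 (0.28 to 0.67, adjusted p = 0.00113) and lower with DINCH than with DOM (DINCH minus DOM -0.40, -0.59 to -0.20, adjusted p = 0.00493). Its order by the mean was DOM (1.93 ± 0.19), MEHP (1.70 ± 0.11), DINCH (1.53 ± 0.08), DOS (1.47 ± 0.16), BDB (1.46 ± 0.06) and DMSO (1.22 ± 0.11), and no neighbouring compounds differed by the test. DOM and MEHP, for example, were 0.23 apart (MEHP minus DOM -0.43 to -0.03, adjusted p = 0.0993).

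For Arnt on its dimmer probe the order was DINCH (0.40 ± 0.37), DOM (0.37 ± 0.10), MEHP (0.17 ± 0.16), BDB (-0.05 ± 0.06), DOS (-0.10 ± 0.08) and DMSO (-0.30 ± 0.17), again with no difference between neighbours by the test. Compounds further apart did differ. DINCH exceeded DOS by 0.50 (0.20 to 0.81, adjusted p = 0.0189) and BDB by 0.45 (0.17 to 0.73, adjusted p = 0.0231), and DOM exceeded BDB by 0.42 (0.14 to 0.70, adjusted p = 0.034). On the brighter probe DOM exceeded BDB by 0.39 (0.13 to 0.65, adjusted p = 0.0314). All of these were under 1.5-fold. DINCH and DOM were 0.03 apart on the dimmer probe, with an interval of -0.25 to 0.31, so that differences within this interval remain compatible with the values.

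**Figure D4:**
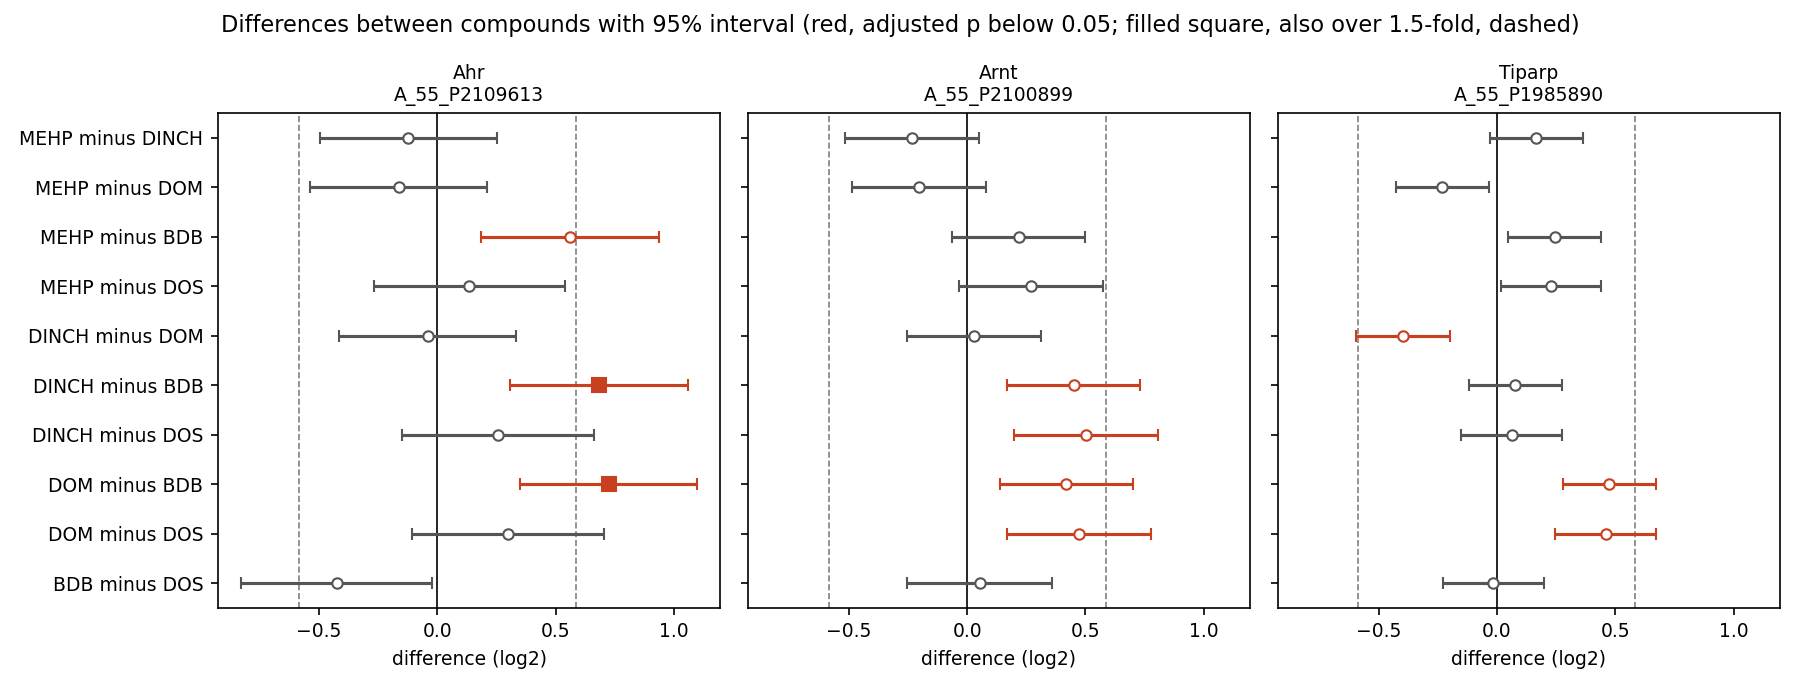
Differences between the 10 pairs of compounds (x axis, log2, first minus second) with 95% intervals, for the Ahr probe and the dimmer probes of Arnt and Tiparp. Red marks an adjusted p below 0.05, filled squares are also over 1.5-fold, and dashed lines mark 1.5-fold. The 2 filled squares are Ahr with DINCH (0.68) and DOM (0.72) over BDB.

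Beyond the members, genes known to be induced through the receptor moved in both directions. Of 15 listed target genes other than the members, 9 were tested. With DOM 3 were called higher and 2 lower, with DINCH 1 higher and 3 lower, with the DINCH count at 0 to 3 over the 8 cases with an array left out. Of the 3 lower with DINCH, Aldh3a1 was counted through its dimmer probe, which was well above background on only 2 of the 4 DINCH arrays. Its brighter probe was not called with DINCH. Over all tested genes 9.9% were called higher and 10.6% lower with DOM, and 4.25% higher and 4.02% lower with DINCH. With MEHP, BDB and DOS 0 were called, where 2, 3 and 1 of the 9 had p below 0.05 before adjustment in limma. Over all tested probes 16.2%, 14.4% and 7.13% had. With DOM and DINCH 8 and 5 of the 9 had p below 0.05 before adjustment, against 42.5% and 26.2% of probes. Nfe2l2 was lower with DINCH (-0.54, adjusted p = 0.0202) and DOM (-0.35, adjusted p = 0.0214), under 1.5-fold and so not called. The median change of the 9 was -0.31 with DOM, against -0.03 over all tested genes, and -0.15 with DINCH, against -0.001. With DOS it was -0.13, against -0.008, with MEHP -0.065, against -0.013, and with BDB -0.007, against -0.032. The list is from textbooks and was written with earlier results of these data known, and several of its genes also answer to other regulators.

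Nqo1, the quinone reductase that is a target of both the receptor and NRF2, showed the largest increase of the 9 on the brightest probe. It read 0.09, -0.15, -0.31 and -0.57 on the DMSO arrays, 2.03, 1.49, 1.59 and 1.41 on the DOM arrays and 0.82, 0.50, 0.36 and 0.77 on the DINCH arrays. Both treated groups lay wholly above DMSO, and DOM above DINCH. The difference was 1.86 ± 0.18 for DOM (3.64-fold, adjusted p = 0.000285) and 0.85 ± 0.16 for DINCH (1.80-fold, adjusted p = 0.0145). It was 0.56 ± 0.15 for MEHP (adjusted p = 0.107), 0.24 for DOS (0.865) and 0.19 for BDB (0.7). The DINCH call was lost without DMSO replicate 3 (adjusted p = 0.0507).

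Aldh3a1, an aldehyde dehydrogenase that is a textbook target of the receptor, had 2 probes that disagreed. With DOM both were called higher, the brighter by 0.62 ± 0.15 (1.53-fold, adjusted p = 0.0119) and the dimmer by 3.72 ± 0.15 (13.2-fold, adjusted p = 1.14e-05), and on both all 4 DOM arrays were above all DMSO arrays. The brighter was lost, by falling under 1.5-fold, without DMSO replicate 1 (0.56), DMSO replicate 3 (0.58) or DOM replicate 4 (0.52). With DINCH the brighter differed by 0.21 ± 0.11 (adjusted p = 0.259), all arrays above DMSO, while the dimmer was called lower. It passed the filter through its DMSO arrays and was well above background on only 2 of the 4 DINCH arrays, so no size is given for it, and it is 1 of the 3 targets counted as lower with DINCH. Cyp1a2, the hepatic relative of Cyp1a1, was well above background on 0 of 23 arrays.

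The other target genes called lower were a transporter, an oxidoreductase and a growth factor. Slc7a5, an amino acid transporter subunit, fell with DOM by 1.30 ± 0.12 (2.46-fold, adjusted p = 0.00027) and with DINCH by 1.04 ± 0.24 (2.06-fold, adjusted p = 0.029). Xdh, xanthine dehydrogenase, fell with DOM by 0.79 ± 0.14 (adjusted p = 0.00306), and Ereg, a growth factor of the EGF family, fell with DINCH by 0.78 ± 0.20 (adjusted p = 0.0397). In each case all treated arrays were below all DMSO arrays, which was a condition for naming the gene. The DINCH changes of Slc7a5 and Ereg depended on single arrays, losing the call in 6 and 7 of the 8 cases with an array left out. Ugt1a6b, a glucuronosyltransferase of a locus whose isoforms share sequence, was called higher with DOM on its dimmer probe by 1.16 ± 0.31 (adjusted p = 0.0216), while its brighter probe differed by 0.13 (adjusted p = 0.57), so its change is uncertain.

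**Figure D5:**
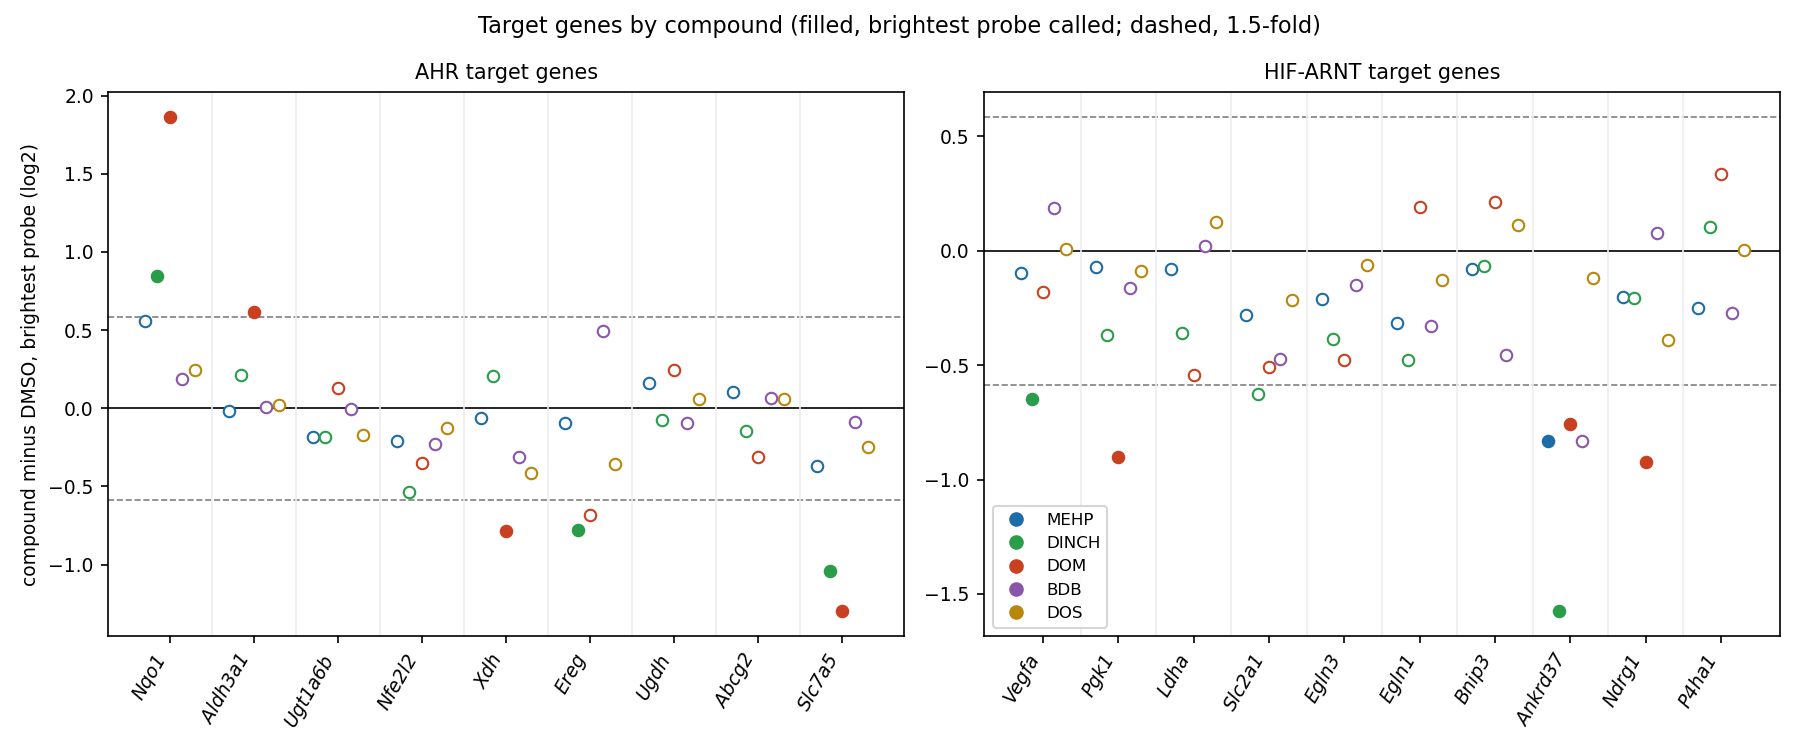
Difference from DMSO (y axis, log2) for the brightest probe of each tested receptor target gene (left) and hypoxia-inducible factor target gene (right), by compound. Filled points were called and dashed lines mark 1.5-fold. Nqo1 with DOM (1.86) is the highest point on the left, and Ankrd37 with DINCH (-1.58) the lowest on the right.

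The chaperones and coregulators of the receptor were measured almost completely and none was called. Of 15 such genes 14 or 15 were tested in each comparison and 0 were called. Over all tested genes 20.5% were called with DOM, 8.26% with DINCH, 1.68% with MEHP and 0% with BDB and DOS. Before adjustment in limma, 5 with DOM, 5 with BDB, 3 with DINCH, 2 with MEHP and 0 with DOS had p below 0.05. The shares of all tested probes at that limit were 42.5% with DOM, 14.4% with BDB, 26.2% with DINCH, 16.2% with MEHP and 7.13% with DOS. Hsp90aa1 and Hsp90ab1, the chaperones that hold the receptor, differed from DMSO by -0.01 and -0.06 with DOM and by 0.00 and 0.04 with DINCH. On their brightest probes, Ptges3 differed by -0.39 with DOM (adjusted p = 0.0172) and Ncoa2 by 0.48 (adjusted p = 0.0182). The coactivator Ep300 differed by 0.57 with DOM (adjusted p = 0.0419), and all 3 were under 1.5-fold. All 4 DOM arrays lay below DMSO for Ptges3 and above it for Ncoa2, and 2 of 4 lay above it for Ep300. Of 12 other bHLH-PAS genes 5 were tested, and only Arntl, a clock partner of CLOCK, was called, with DINCH, where it fell by 0.66 ± 0.15 (adjusted p = 0.0264, lost in 5 of the 8 cases with an array left out). With MEHP, BDB and DOS 0 of these 5 had p below 0.05 before adjustment, and with DOM 2 did and 0 were called. Hif1a, the other main partner of ARNT, differed by -0.20 with DOM (adjusted p = 0.214) and 0.01 with DINCH (adjusted p = 0.982).

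Genes driven by ARNT with the hypoxia-inducible factors lay below DMSO where they were called. The dimmer Arnt probe, called with DOM and DINCH alone, lay above DMSO, and the brighter was called with no compound. Of 12 listed, 10 were tested, and 4 were called lower with DOM, 3 with DINCH and 1 with MEHP, and 0 higher. Over all tested genes 10.6% were called lower with DOM, 4.02% with DINCH and 0.552% with MEHP. The median change of the 10 was -0.49 with DOM, -0.38 with DINCH and -0.21 with MEHP, against -0.03, -0.001 and -0.01 over all tested genes. With BDB it was -0.22, against -0.032, and with DOS -0.07, against -0.008. With DOM, P4ha1, Bnip3 and Egln1 lay above DMSO on their brightest probes (0.34, 0.21 and 0.19) and were not called. With BDB and DOS 0 were called and 5 and 1 had p below 0.05 before adjustment in limma, against 14.4% and 7.13% of all tested probes. For BDB the count of called genes was 2 under 4 alternative settings.

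Ankrd37, a hypoxia marker, was called lower with 3 compounds. It fell by 1.58 ± 0.19 on the log2 scale with DINCH (2.98-fold, adjusted p = 0.00363), by 0.76 ± 0.13 with DOM (1.69-fold, adjusted p = 0.0028) and by 0.83 ± 0.12 with MEHP (1.78-fold, adjusted p = 0.0172, lost without MEHP replicate 4, adjusted p = 0.06). With BDB the difference was -0.83 ± 0.11 (1.78-fold, adjusted p = 0.0682), not called, with all 4 arrays below DMSO. The glycolytic enzyme Pgk1 fell with DOM by 0.90 ± 0.12 (adjusted p = 0.00097) and Ndrg1, a stress-responsive gene, by 0.92 ± 0.17 (adjusted p = 0.0035). Ldha was called lower with DOM and DINCH on 2 of its 3 probes, and Vegfa with DINCH on 1 of its 2 probes (by 0.65 ± 0.18, adjusted p = 0.0499). The other Vegfa probe differed by -0.41 (adjusted p = 0.117), and the DINCH count of 3 was 2 with quantile normalization, with outlier spots kept, with detection on 1 array and with the authors' values. For Ankrd37, Pgk1 and Ndrg1 all treated arrays were below all DMSO arrays where they were called, which was a condition for naming them.

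Of 6 enzymes that work beside CYP1 monooxygenases 5 were tested, and with DOM 2 were called higher, where 9.9% of all tested genes were. They were Cyb5a, the cytochrome b5 electron donor, by 1.1 ± 0.09 (2.15-fold, adjusted p = 0.000188) and Ephx1, microsomal epoxide hydrolase, by 0.95 ± 0.16 (1.93-fold, adjusted p = 0.00237). The other Ephx1 probe differed by 0.38 (1.3-fold, adjusted p = 0.0719) and was not called. Por, the reductase that feeds electrons to cytochromes P450, differed by 0.47 with DOM (adjusted p = 0.0119, under 1.5-fold). With MEHP, DINCH, BDB and DOS 0 were called, and 1, 2, 1 and 0 had p below 0.05 before adjustment in limma. Over all tested probes the shares were 16.2%, 26.2%, 14.4% and 7.13%. Of 9 listed enzymes of tryptophan breakdown, a source of endogenous ligands of the receptor, 4 were tested. All but Il4i1 belong to the kynurenine route. Il4i1 alone was called, lower with DOM, where 10.6% of all tested genes were. It passed the filter through its DMSO arrays and was well above background on only 2 of the 4 DOM arrays, so no size is given. That count became 0 without any of DMSO replicates 1, 3 and 4 or DOM replicates 1, 2 and 3. With the other compounds 0 of the 4 were called, with 2 (MEHP), 1 (DINCH), 2 (BDB) and 1 (DOS) at p below 0.05 before adjustment.

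The named genes whose brightest probe followed each measured member most closely over the 23 arrays were found by Pearson correlation among 11157 genes. For Ahr they were Cep43 (0.843), Wtip (0.827) and Map4 (0.811), for Arnt Map4k5 (0.89), Ttc3 (0.869) and Zfp358 (0.867), and for Tiparp Rai14 (0.762), Rsrc1 (0.756) and Tspan12 (0.75). After the group means were subtracted the 9 correlations were between 0.528 and 0.834. None of the members was among another member's closest 3. Between members, the highest correlation was 0.72, of the brighter Arnt probe with the dimmer Tiparp probe. The arrays share treatments and slides, so these values describe likeness over these 23 arrays.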

How the data were processed

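RNA of TM4 cells was hybridized to 23 1-colour Agilent 8x60K mouse arrays. The authors extracted spot intensities with Feature Extraction 11.5.1.1, which subtracted background and removed spatial trends, and deposited them linear and unscaled. A further deposited table held the authors' log2 values, set to the 75th percentile and centred per probe, which served as an alternative and whose columns correlated with their own arrays at 0.9996 or more. There were 0 columns of other series.

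Here log2 intensity (floor 1) was set relative to the 75th percentile of non-control spots. Outlier spots, of which an array had 102 to 187, were dropped, and replicate spots averaged. Probes were named through RefSeq transcripts, and positions are those of genes in GRCm38.p6, since the array was designed on mm9. Testing required that all arrays of at least 1 group were well above background and not below the 20th percentile. Each compound was compared with DMSO alone, and pairs of compounds in 1 fit of all arrays, with limma 3.58.1 in R 4.3.3 (with the data.table package, version 1.17.8) and Benjamini-Hochberg adjustment over all tested probes. Calls needed an adjusted p below 0.05 and more than 1.5-fold, and 1 called probe sufficed for a gene. Motifs were searched in promoter windows of 300 bases. Steps were tested on simulated data. Figures used Python 3.11.15 with matplotlib 3.10.9.

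The named genes are the 7 members by their brightest probe, Cyp1a2, Nqo1 and Aldh3a1, per list and compound at most 3 called genes with the largest change and all arrays beyond DMSO, and for each measured member the 3 most correlated genes. Other genes were chosen after their values were seen. Members and lists were chosen with earlier results of these data known. The study's methods describe the replicates as biological and leave out 1 DOS array for high background. Same-numbered arrays were checked for pairing by the correlation of their deviations from the group means. Every pair was above 0.1 for DINCH (0.169 to 0.497), BDB (0.254 to 0.434) and DOS (0.22 to 0.446), taken as pairs found from the values, and not for MEHP (lowest -0.14) or DOM (lowest 0.039). The alternatives were quantile normalization, normexp correction (offset 50), no filter, detection on 1 array, a block for slide, slide row or replicate, a joint fit of all groups, retained outlier spots, the brightest probe alone, a variance trend, the authors' values, and leaving out each array. For pairs, leaving out arrays was added after seeing the data.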

Additional observations from a re-analysis of the deposited data

Results flagged for a closer look

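Among the 55 groups of 4 arrays (11 probes, 5 groups), 8 held an array that stood apart from the other 3 by more than the 95% limit for a gap in 4 values, and chance alone gives about 1 in 20. Only 3 of the 8 were well above background. Arnt on its brighter probe read 2.91 in DMSO replicate 3 and 2.77 to 2.78 on the other DMSO arrays. Tiparp on its dimmer probe read 1.65 in DINCH replicate 4 and 1.49 to 1.5 on the others. Arnt2 read -4.14 in DMSO replicate 4 and -6.92 to -6.54 on the others. The rest were not marked as well above background. Cyp1b1 read -4.99 in MEHP replicate 1 and -6.68 in DINCH replicate 3. Ahrr on probe A_51_P254425 read -7.18 in MEHP replicate 1 and -5.35 in DMSO replicate 3. Ahr on its dim probe read -7.43 in MEHP replicate 1. The cause was not tested.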

How the results depend on the processing

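The DOM count of called members (2) became 1 with normexp correction, where the Arnt difference was 0.58 and so under 1.5-fold, and 0 with only the brightest probe of each gene. It was 2 with each array left out. The DINCH count (1) became 0 without the filter, with detection on 1 array and with only the brightest probe, and was 0 to 1 over arrays left out. MEHP, BDB and DOS stayed at 0 in all settings run. The count over compound pairs (2) became 0 with normexp correction and was 1 to 4 over arrays left out. The replicate block gave the same counts of members (2 for DOM, 1 for DINCH, 0 for the others) and of pairs (2), and changed 1 other call: other bHLH-PAS genes with DOM went from 0 to 1, as they did with the slide block and all groups in 1 fit.

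Receptor targets with DINCH (4) became 0 without the filter and 1 with detection on 1 array, and 0 to 3 over arrays left out. They were 1 without DMSO replicate 1 or 2 or DINCH replicate 4, 2 without DMSO replicate 4 or DINCH replicate 1 and 0 without DMSO replicate 3. Other bHLH-PAS genes with DINCH (1) became 0 with normexp correction, no filter or detection on 1 array, and 0 to 1 over arrays left out (with DOM also 0 to 1, being 1 without DOM replicate 2 or DMSO replicate 4). Hypoxia-inducible factor targets became 0 with MEHP (1) without the filter or with detection on 1 array, and 0 to 1 over arrays left out. With DINCH (3) they became 1 without the filter. With BDB (0) they became 2 with normexp correction, the slide block, all groups in 1 fit or the variance trend, and 1 with only the brightest probe. Enzymes of tryptophan breakdown with DOM (1) became 0 with quantile normalization, normexp correction, no filter, detection on 1 array or the variance trend, 2 with all groups in 1 fit, and 0 to 1 over arrays left out. Receptor coregulators with DOM (0) became 1 with the slide block and 0 to 1 over arrays left out (1 without DMSO replicate 1 or DOM replicate 1 or 3).

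Differences near 0 changed sign. Ahr with DOS was 0.0138 with normexp correction, 0.0105 with the slide block, 0.0159 with the replicate block and -0.0724 to 0.044 over arrays left out. Aldh3a1 was 0.0204 for MEHP with the slide block (-0.0816 to 0.033 over arrays left out), -0.0355 for BDB with normexp correction (-0.0576 to 0.057), and for DOS -0.0364 with normexp correction and -0.0324 with the slide block (-0.0693 to 0.178). The brighter Arnt probe with BDB was -0.0072 to 0.0667 over arrays left out. The cause was not tested. Genes called ranged over settings other than left-out arrays from 3 to 263 with MEHP (201 as reported), from 97 to 1157 with DINCH (984), from 1627 to 2594 with DOM (2463), from 0 to 120 with BDB and from 0 to 2 with DOS. Signal over background limits Cyp1a1, Cyp1b1, Ahrr and Arnt2, for whose probes only bounds on the signal are known.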
